A study of Mus musculus with 9 samples.

Results

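The genes described here encode collagens, elastic fibre proteins and other components of the extracellular matrix of the lung. They are 35 genes chosen by symbol from the 52381 genes of the deposited table, and each symbol had 1 row. The genes were grouped as interstitial collagens (10 genes), basement membrane (9), elastic fibre (9) and proteoglycans with matrix glycoproteins (7). Gene expression was measured by RNA sequencing of lung from 9 mice whose lungs had been injured with lipopolysaccharide (LPS), the endotoxin of Gram-negative bacteria, a model of acute lung injury (ALI). In 5 mice the injury was combined with trimethylamine N-oxide (TMAO), a metabolite that gut bacteria and the liver make from choline and carnitine, and these are called TMAO lungs. The other 4 mice had LPS injury alone and are called LPS-ALI lungs. All 9 mice had received LPS, and lungs without LPS are not analysed here. The sources used here do not give strain, sex, age, doses or times. The comparison addresses whether matrix gene expression in the injured lung differs with TMAO.

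The lung matrix is built from a few families of proteins. Fibrillar collagens, made mainly by fibroblasts, give tensile strength to airways, vessels and septa. Type IV collagen and laminins form the thin basement membrane shared by capillary endothelium and alveolar epithelium, and elastin on a scaffold of fibrillin microfibrils lets the lung recoil. Small proteoglycans and matricellular proteins bind collagen and growth factors and regulate assembly, and lysyl oxidases crosslink collagen and elastin.

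Several of these genes lie close to each other in the genome (GRCm38 coordinates from GENCODE M21). The type IV collagen genes Col4a1 (chromosome 8, 11198423 to 11312826, minus strand) and Col4a2 (11312805 to 11449287, plus strand) are arranged head to head, and their annotated 5′ ends overlap by 22 bases. Col3a1 and Col5a2 lie 24614 bases apart on chromosome 1, Col6a2 and Col6a1 85161 bases apart on chromosome 10, and Dcn and Lum 46984 bases apart on chromosome 10. RefSeq promoter windows of 300 bases around the annotated start (GRCm38.p6) were matched for 21 of the 35 genes. Windows are shown for Col4a1 and Col4a2, whose RNA levels kept a narrow ratio across the 9 lungs, and for Col1a2 and Col3a1, chains of the type I and type III fibrils. A narrow ratio was also kept by Col1a1 and Col1a2, which lie on chromosomes 11 and 6. Whether gene arrangement bears on such ratios was not tested. Capitals mark 3 motifs on either strand: the TATA box, spelled TATAAA, the CCAAT box, spelled as named, and the GC box, spelled GGGCGG. No marked motifs overlap each other in these windows.
Col4a1, chr8:11312777-11313076, minus strand: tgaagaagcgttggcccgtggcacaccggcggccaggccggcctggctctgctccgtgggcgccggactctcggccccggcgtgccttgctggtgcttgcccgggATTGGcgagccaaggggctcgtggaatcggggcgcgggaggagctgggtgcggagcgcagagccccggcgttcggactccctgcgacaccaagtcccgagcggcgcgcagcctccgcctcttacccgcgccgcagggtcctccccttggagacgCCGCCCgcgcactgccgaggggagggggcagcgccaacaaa
Col4a2, chr8:11312555-11312854, plus strand: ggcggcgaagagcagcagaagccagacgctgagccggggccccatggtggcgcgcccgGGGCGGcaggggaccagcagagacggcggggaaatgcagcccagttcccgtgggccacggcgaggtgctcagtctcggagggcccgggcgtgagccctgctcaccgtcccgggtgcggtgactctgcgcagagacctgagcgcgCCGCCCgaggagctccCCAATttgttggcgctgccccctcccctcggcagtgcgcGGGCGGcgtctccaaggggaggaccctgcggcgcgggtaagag
Col1a2, chr6:4505368-4505667, plus strand: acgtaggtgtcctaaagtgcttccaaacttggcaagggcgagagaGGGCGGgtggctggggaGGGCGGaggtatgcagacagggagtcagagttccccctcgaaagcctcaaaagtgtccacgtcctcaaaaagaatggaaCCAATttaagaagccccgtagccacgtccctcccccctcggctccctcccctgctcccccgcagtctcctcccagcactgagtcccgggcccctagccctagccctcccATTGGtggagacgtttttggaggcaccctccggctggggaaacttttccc
Col3a1, chr1:45311288-45311587, plus strand: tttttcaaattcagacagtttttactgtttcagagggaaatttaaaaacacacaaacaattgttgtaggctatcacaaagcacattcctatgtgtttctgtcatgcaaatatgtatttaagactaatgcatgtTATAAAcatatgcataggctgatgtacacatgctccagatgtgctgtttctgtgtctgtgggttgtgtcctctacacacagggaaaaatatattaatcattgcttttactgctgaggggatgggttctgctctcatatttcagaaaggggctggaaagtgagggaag
The Col4a1 and Col4a2 windows share 78 bases, read on opposite strands, and both hold a CCAAT box and at least 1 GC box. The only GC box of the Col4a1 window, at position 260, lies in the shared bases. It is the same site as the GC box at position 258 of the Col4a2 window. The Col1a2 window holds 2 CCAAT boxes and 2 GC boxes, and the Col3a1 window holds 1 TATA box and neither of the others. A GC box was present in 60.7% of the 28 windows of the matrix genes and in 35.7% of all 32851 windows. A CCAAT box was present in 25.0% and 37.4%, and a TATA box in 14.3% and 13.6%. These matches describe letters in a window, were not tested and are not shown to be bound by any factor.

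All 9 libraries entered the main comparison, and 3 that stood out once the values were seen are described first. The values are FPKM, which corrects fragments for gene length and library size, so levels may be compared between genes. Between lungs the scale was not even: the median tested gene had 2.34 FPKM in TMAO replicate 5 and 9.17 FPKM in TMAO replicate 4. Total read numbers are not given, and relative depth, read from the steps between low values, was 0.380 to 1, the least in TMAO replicate 5. Between 33.4% and 52.2% of summed FPKM per library was mitochondrial, the most in TMAO replicate 5. That library had the lowest FPKM for 18 of the 35 matrix genes, but it was also the lowest for 74.7% of all 11817 genes tested. LPS-ALI replicate 4 was the lowest for 15 matrix genes, against 7.57% of all tested genes. TMAO replicate 4 was the highest for 28 matrix genes, against 39.5% of all tested genes. The labelled tissue is lung, while the wording of the extraction protocol names platelets, and Sftpc, the surfactant gene of alveolar type 2 cells, had 3842 to 7333 FPKM in TMAO lungs and 709.7 to 9809 FPKM in LPS-ALI lungs. Deposited column codes start with X for LPS-ALI replicates 3 and 4 (called X-coded) and with B for the other 7 libraries, and the meaning of the letters is unknown.

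The matrix genes did not separate TMAO from LPS-ALI lungs. None of the 32 genes that passed the filter (1 FPKM or more in 4 or more libraries) reached an adjusted p of 0.05 in limma, as did none of all 11817 genes tested (0.0%). At an unadjusted p under 0.05 the count was also 0 of 32 in limma, against 3.35% of all tested genes (0.423% higher and 2.93% lower in TMAO lungs). The lowest adjusted limma p of these 32 genes was 0.998. The FPKM ranges of the groups overlapped for each of the 32 genes, where 0.118% of all tested genes were without overlap and higher in TMAO lungs and 1.36% were without overlap and lower. The log2(FPKM + 1) difference, TMAO minus LPS-ALI, ranged from -0.32 to 0.90 over the 32 genes. Its standard error had a median of 0.67 and a range of 0.26 to 1.17. Every one of the 32 limma 95% intervals included 0, while 25 also included a 2-fold higher and 11 a 2-fold lower level in TMAO lungs. Differences of 2-fold were thus within the intervals of most of these genes.

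The median tested gene was 0.17 log2 units lower in TMAO lungs, a shift that was -0.01 under median-of-ratios scaling and 0.05 without TMAO replicate 5, so differences are given below relative to the median gene. Any SE or limma p printed beside them belongs to the plain difference, before that subtraction, and relative differences were not tested. On the relative scale 28 of the 32 genes lay above the median gene, with a median of 0.46 and a range of -0.15 to 1.07. That median depends on single lungs. It was 0.00 without LPS-ALI replicate 4, 0.20 without LPS-ALI replicate 4 and TMAO replicate 5, and -0.14 without the X-coded LPS-ALI replicates 3 and 4, where 9 of 32 genes lay above the median gene. It was 0.67 without TMAO replicate 5 and 0.26 without TMAO replicate 4. In bulk tissue, fewer cells of a type and less RNA per cell cannot be told apart, and this holds for every level below.

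**Figure D1:**
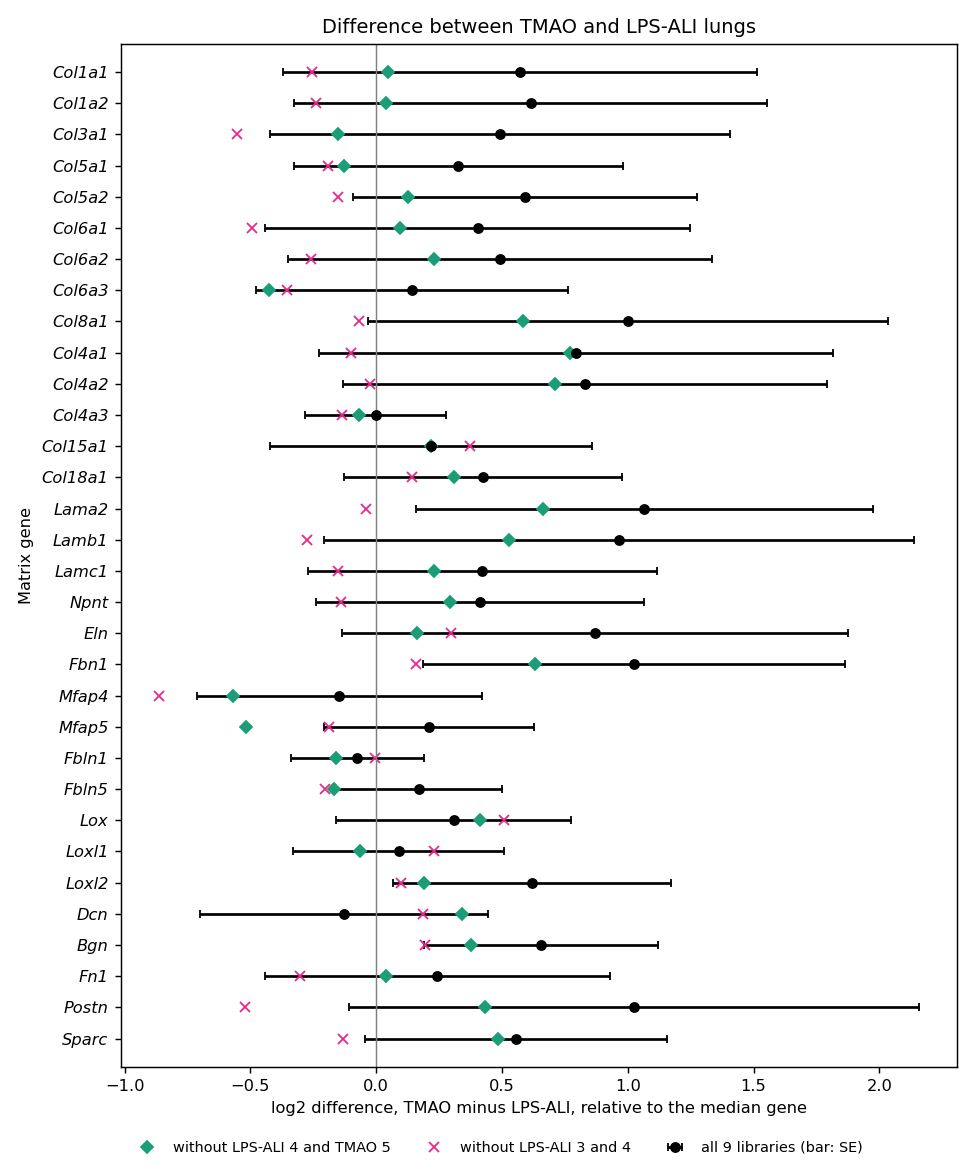
Difference of each of the 32 tested matrix genes on the horizontal axis (log2 units, TMAO minus LPS-ALI, relative to the median gene), one gene per row. Black points are all 9 libraries, with bars for the standard error of the difference before the median gene is subtracted. Green diamonds leave out LPS-ALI replicate 4 and TMAO replicate 5, and pink crosses leave out LPS-ALI replicates 3 and 4. Most black points lie right of 0 (28 of 32), and most pink crosses lie left of it.

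For none of the 32 genes was the size of the plain difference between groups above the larger group SD between lungs on the log2 scale. The SD of log2(FPKM + 1) over the 9 libraries, taken relative to the median gene, had a median of 0.77 over the tested matrix genes and 0.39 over all tested genes. Relative to the median gene, LPS-ALI replicate 4 was the lowest library for 27 of the 32 matrix genes, against 21.6% of all tested genes. TMAO replicate 4 was the highest for 19 of 32, against 9.51% of all tested genes. TMAO replicate 5, the lowest in plain FPKM for many genes, was the lowest on this scale for 1 gene, Dcn, against 18.3% of all tested genes. The scale cannot fall below its value at 0 FPKM, which was -1.74 in TMAO replicate 5, where the median gene was lowest. Low genes were thus held up in that library. Col15a1, at 0 FPKM there, lay above its -1.84 in LPS-ALI replicate 4, where it had 1.2 FPKM. The counts of highest and lowest genes describe the libraries and were made after their values were seen.

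**Figure D2:**
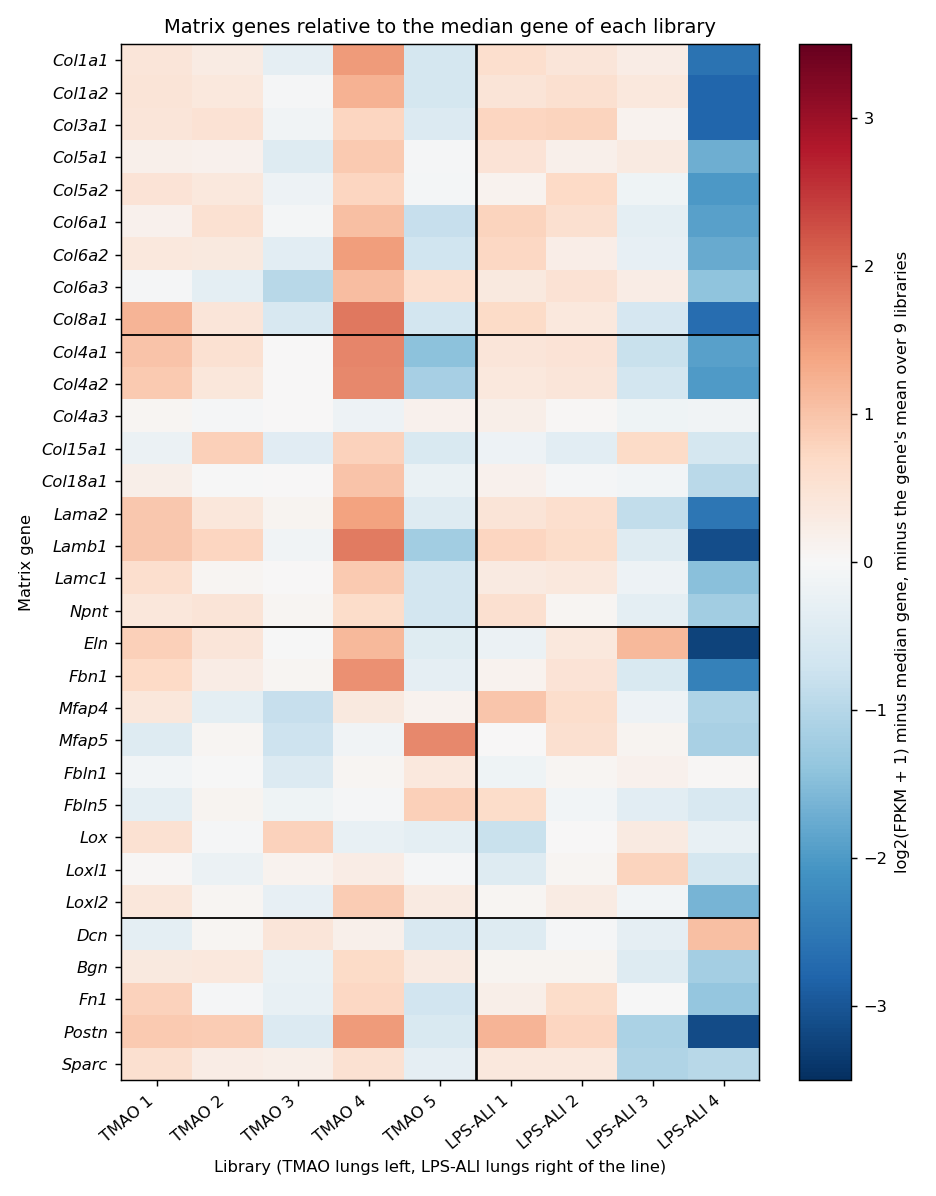
Heat map of the 32 tested matrix genes (rows) in 9 libraries (columns, TMAO lungs left and LPS-ALI lungs right of the vertical line). Colour is log2(FPKM + 1) minus the median gene of the library and minus the mean of the gene, and horizontal lines separate the gene classes. The column of LPS-ALI replicate 4 is blue in most rows and red for Dcn, and the column of TMAO replicate 4 is red in most collagen and laminin rows.

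The interstitial collagen class holds mainly chains of the fibrils and filaments between cells, together with the short-chain Col8a1 and the fibril-associated Col14a1. Col3a1, the type III chain found in distensible tissue, was the most abundant of the class. It had 28.8, 37.2, 20.8, 55.9 and 6.85 FPKM in TMAO lungs, against 44.8, 40.7, 23.2 and 2.82 FPKM in LPS-ALI lungs. The groups overlapped, and the lowest value of all was LPS-ALI replicate 4. The plain difference was 0.32 log2 units, with an SE of 0.91 and an adjusted p of 0.998 in limma. The difference relative to the median gene was 0.49 log2 units. Its sign turned with single lungs: the relative difference was -0.35 without LPS-ALI replicate 4, -0.15 without that library and TMAO replicate 5, and -0.56 without the X-coded libraries.
Col6a1, a chain of the beaded filaments that anchor cells to basement membranes, had 17.1, 27.7, 15.7, 50.5 and 3.66 FPKM in TMAO lungs, against 33.2, 25.3, 11.96 and 4.08 FPKM in LPS-ALI lungs. Again TMAO replicate 4 was the highest, and TMAO replicate 5 and LPS-ALI replicate 4 were the lowest.
The 2 chains of type I collagen, the main tensile fibril, averaged 13.6 ± 13.4 FPKM (Col1a1) and 21.0 ± 16.7 FPKM (Col1a2) in TMAO lungs, and 9.47 ± 6.24 and 15.8 ± 9.85 FPKM in LPS-ALI lungs (SD, n = 5 and n = 4). Col1a2 had 1.41 FPKM in LPS-ALI replicate 4 and 17.5 to 22.4 FPKM in the other LPS-ALI lungs. Their relative differences were 0.57 and 0.61, 0.05 and 0.04 without LPS-ALI replicate 4 and TMAO replicate 5, and -0.20 and -0.21 without LPS-ALI replicate 4 alone.
Col8a1, a short-chain collagen of vessel walls, had the largest spread between lungs of the class. It ranged from 0.89 to 31.4 FPKM in TMAO lungs and from 0.11 to 10.5 FPKM in LPS-ALI lungs. Its relative difference of 1.00 was -0.07 without the X-coded libraries.
Col5a1 and Col5a2, chains of the type V collagen that limits fibril diameter, averaged 3.69 and 6.58 FPKM in TMAO lungs and 3.07 and 4.94 FPKM in LPS-ALI lungs. Col6a2 averaged 14.2 FPKM in TMAO lungs and 9.48 FPKM in LPS-ALI lungs. Col6a3 averaged 2.09 FPKM in TMAO lungs and 1.84 FPKM in LPS-ALI lungs. Col14a1, a fibril-associated collagen, was at or above 1 FPKM in 1 library (1.21 FPKM in TMAO replicate 4) and was not tested.

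Basement membrane genes held the most abundant collagens among the 35 genes. Col4a1 had 335, 294, 183, 838 and 29.98 FPKM in TMAO lungs, against 278, 258, 99.2 and 52.6 FPKM in LPS-ALI lungs. Its partner Col4a2, which supplies the other chain of the same triple helix, had 200.2, 171, 115, 523 and 23.1 FPKM in TMAO lungs, against 169, 156, 68.3 and 30.6 FPKM in LPS-ALI lungs. Both genes were highest in TMAO replicate 4 and lowest in TMAO replicate 5, with LPS-ALI replicate 4 next, so both groups spanned low and high values.
The relative differences were 0.79 with an SE of 1.02 for Col4a1 and 0.83 with an SE of 0.96 for Col4a2 (limma, adjusted p = 0.998 for both). Without TMAO replicate 5 they were 1.28 and 1.24 (limma, adjusted p = 0.685 for both). Without the X-coded libraries they were -0.10 and -0.02.
Although Col4a1 varied 27.9-fold over the 9 lungs, its ratio to Col4a2 ranged from 1.30 to 1.73. The ratio was 1.67, 1.73, 1.59, 1.60 and 1.30 in TMAO lungs and 1.65, 1.65, 1.45 and 1.72 in LPS-ALI lungs. The log2 ratio differed by -0.04 between the groups (exact two-sided permutation p = 0.714 over 126 splits, adjusted p = 0.913 over 7 ratios), less than the SD of 0.16 among TMAO lungs and of 0.11 among LPS-ALI lungs.

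**Figure D3:**
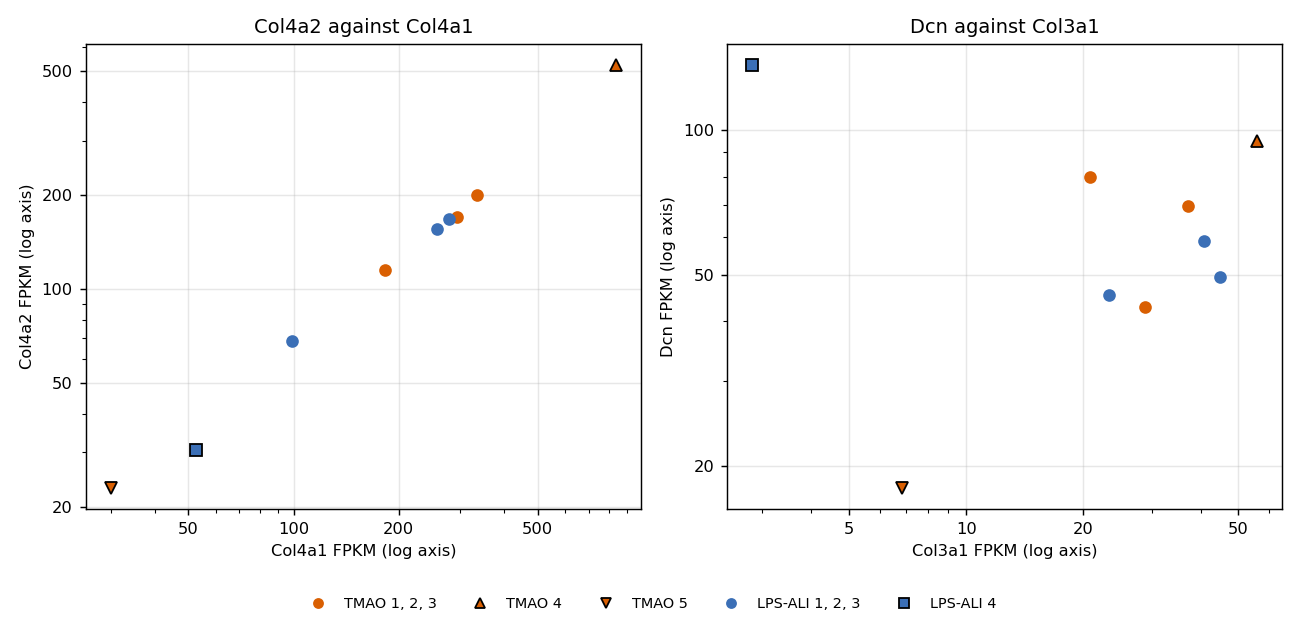
Left, Col4a2 FPKM against Col4a1 FPKM, and right, Dcn FPKM against Col3a1 FPKM, both on log axes, one symbol per library (orange TMAO, blue LPS-ALI, with outlined symbols for TMAO replicates 4 and 5 and LPS-ALI replicate 4). The Col4a1 and Col4a2 values fall along one line with a ratio between 1.30 and 1.73, while LPS-ALI replicate 4 combines the lowest Col3a1 (2.82 FPKM) with the highest Dcn (137 FPKM).

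Col4a3, a minor type IV chain that in lung is made by alveolar type 1 cells, followed another pattern. It had 2.25, 2.68, 2.35, 3.17 and 0.70 FPKM in TMAO lungs, against 3.40, 2.53, 1.84 and 2.35 FPKM in LPS-ALI lungs. LPS-ALI replicate 4, low for most of the class, lay within the range of the other lungs here. The log2 ratio of Col4a3 to Col4a1 was -6.75 ± 0.99 in TMAO lungs and -5.82 ± 0.97 in LPS-ALI lungs (SD, n = 5 and n = 4, exact permutation p = 0.198, adjusted p = 0.913), with the highest ratio in LPS-ALI replicate 4.
Laminin chains were carried by Lamc1, the gamma chain common to most laminins. Lamc1 had 46.1, 38.3, 32.5, 88.9 and 8.98 FPKM in TMAO lungs, against 46.2, 43.3, 27.1 and 12.3 FPKM in LPS-ALI lungs. Of its TMAO values, 3 lay inside the LPS-ALI range, with TMAO replicate 4 above it and TMAO replicate 5 below it.
Lamb1, a beta chain, averaged 24.2 ± 23.4 FPKM in TMAO lungs and 13.0 ± 10.7 FPKM in LPS-ALI lungs (SD, n = 5 and n = 4). Lama2, an alpha chain of mesenchymal basement membranes, averaged 11.1 ± 9.11 and 5.78 ± 5.01 FPKM in TMAO and LPS-ALI lungs, and had the largest relative difference of the 32 genes at 1.07 (SE 0.91, limma, adjusted p = 0.998). LPS-ALI replicate 4 had 0.63 FPKM for Lamb1 and 0.35 FPKM for Lama2, and the Lama2 difference was -0.04 without the X-coded libraries.
Npnt, the integrin ligand nephronectin, averaged 19.2 FPKM in TMAO lungs and 14.9 FPKM in LPS-ALI lungs. Col18a1, whose C-terminal fragment is endostatin, averaged 4.71 FPKM in TMAO lungs and 3.11 FPKM in LPS-ALI lungs. Col15a1, its relative in vessel walls, averaged 2.94 and 2.12 FPKM in TMAO and LPS-ALI lungs and was listed at 0 in TMAO replicate 5.

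Among elastic fibre genes, Mfap4, a microfibril-associated protein that binds elastin, was the most abundant, with 64.4, 46.3, 29.3, 93.3 and 25.6 FPKM in TMAO lungs, against 118, 82.5, 43.1 and 26.3 FPKM in LPS-ALI lungs. The highest 2 of the LPS-ALI values were those of the B-coded lungs. Without the X-coded libraries the relative Mfap4 difference of -0.15 was -0.86 (limma, adjusted p = 1.00).
Eln, the elastin gene, had 32.4, 29.7, 19.1, 61.3 and 5.97 FPKM in TMAO lungs, against 19.0, 25.8, 40.8 and 1.34 FPKM in LPS-ALI lungs. LPS-ALI replicate 4 was the lowest for Eln, while LPS-ALI replicate 3 was above all TMAO lungs but one. The relative difference was 0.87 with an SE of 1.01 and an adjusted p of 0.998 in limma, and -0.07 without LPS-ALI replicate 4.
Lox, the lysyl oxidase that starts crosslinking of elastin and collagen, did not follow its substrates. It had 30.2, 24.3, 39.5, 26.0 and 7.38 FPKM in TMAO lungs, against 14.45, 22.96, 25.9 and 20.1 FPKM in LPS-ALI lungs. LPS-ALI replicate 4 was not low for Lox, and the values overlapped between the groups. The plain difference was 0.14 log2 units, with an SE of 0.47 and an adjusted p of 0.998 in limma. The relative difference was 0.31, and 0.41 without LPS-ALI replicate 4 and TMAO replicate 5.
Fbn1, the fibrillin of microfibrils, averaged 12.9 ± 12.2 FPKM in TMAO lungs and 6.21 ± 4.51 FPKM in LPS-ALI lungs (SD, n = 5 and n = 4), with a relative difference of 1.02 (SE 0.84, limma, adjusted p = 0.998). It was 33.8 FPKM in TMAO replicate 4 and 0.75 FPKM in LPS-ALI replicate 4, and the difference was 0.16 without the X-coded libraries. The ratio of Fbn1 to Eln ranged from 0.337 to 0.552 in TMAO lungs and from 0.107 to 0.560 in LPS-ALI lungs (exact permutation p = 0.865, adjusted p = 0.913).
Mfap5, another microfibril protein, was the member with its highest value in TMAO replicate 5, at 10.59 FPKM, close to 10.55 FPKM in LPS-ALI replicate 2, and it averaged 7.15 FPKM in TMAO lungs and 7.03 FPKM in LPS-ALI lungs. Fbln5, which is needed for elastic fibre assembly, ranged from 3.61 to 7.54 FPKM in TMAO lungs and from 3.55 to 10.2 FPKM in LPS-ALI lungs. Fbln1 averaged 1.66 ± 0.97 FPKM in TMAO lungs and 1.99 ± 0.12 FPKM in LPS-ALI lungs (SD, n = 5 and n = 4). The crosslinking enzymes Loxl1 and Loxl2 averaged 5.68 and 4.06 FPKM in TMAO lungs and 5.82 and 2.62 FPKM in LPS-ALI lungs.

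**Figure D4:**
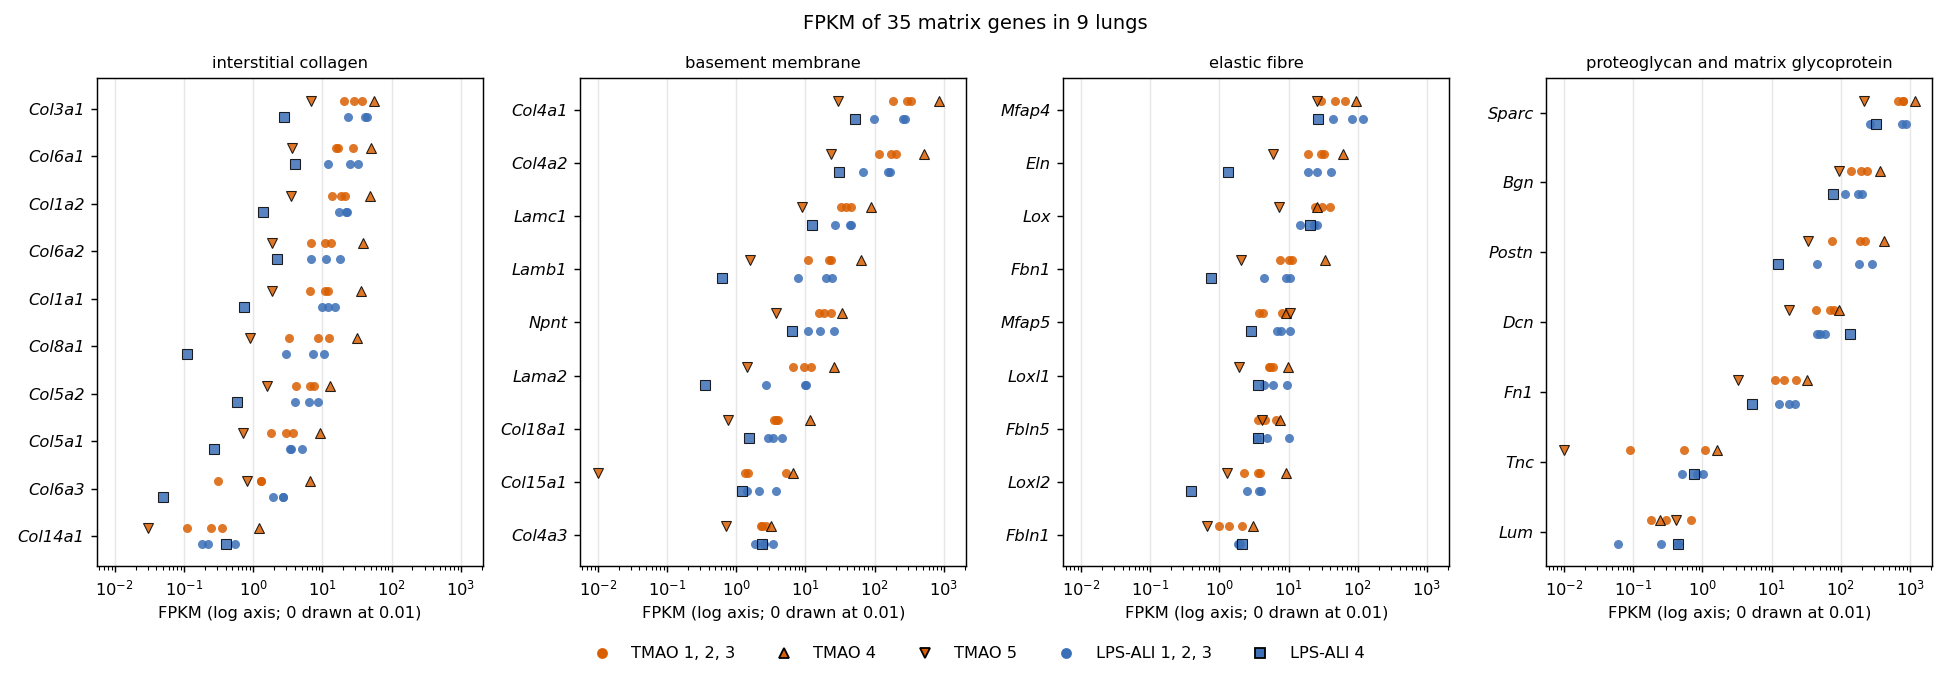
FPKM of the 35 matrix genes on a log axis (values listed at 0 are drawn at 0.01), one panel per class and one gene per row, with TMAO lungs (orange) above LPS-ALI lungs (blue). Each symbol is 1 library, and outlined symbols are TMAO replicate 4 (triangle up), TMAO replicate 5 (triangle down) and LPS-ALI replicate 4 (square). Levels run from Sparc at 216 to 1170.5 FPKM down to Lum at 0.06 to 0.68 FPKM.

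Among proteoglycans and matrix glycoproteins, Sparc was the most abundant of all 35 genes. Sparc, a collagen-binding matricellular protein, had 791, 777, 668, 1170.5 and 216 FPKM in TMAO lungs, against 857, 765, 264 and 323 FPKM in LPS-ALI lungs. The X-coded LPS-ALI lungs and TMAO replicate 5 were low, and the other 6 lungs lay between 668 and 1170.5 FPKM. The relative difference of 0.56 (SE 0.60) was -0.13 without the X-coded libraries.
Bgn, the proteoglycan biglycan, had 193, 241, 138, 367 and 94.5 FPKM in TMAO lungs, against 199, 179, 113 and 77.3 FPKM in LPS-ALI lungs. Its relative difference was 0.65 (SE 0.47, limma, adjusted p = 0.998). It was 0.36 without LPS-ALI replicate 4, 0.20 without the X-coded libraries, 0.18 with library weights and 0.72 when scaled by the median of ratios. Under that last scaling Bgn alone of the 32 genes had an unadjusted limma p under 0.05 (limma, adjusted p = 0.728), as did 6.74% of all tested genes.
Postn, the matricellular protein periostin, had 188, 224, 75.3, 423 and 33.4 FPKM in TMAO lungs, against 278, 184, 45.6 and 12.4 FPKM in LPS-ALI lungs. Both groups held lungs with high and with low values, and LPS-ALI replicate 4 was the lowest. The relative difference was 1.03 with an SE of 1.13, and -0.52 without the X-coded libraries.
Dcn, the proteoglycan decorin that coats collagen fibrils, ran against the collagens in 1 lung. It had 42.9, 69.7, 79.8, 94.9 and 18.0 FPKM in TMAO lungs, against 49.6, 58.7, 45.3 and 137 FPKM in LPS-ALI lungs. LPS-ALI replicate 4, the lowest library for Col1a1, Col1a2 and Col3a1, was the highest for Dcn. The relative difference of -0.13 was 0.34 without LPS-ALI replicate 4 and TMAO replicate 5.
Lum, the neighbouring proteoglycan gene, had at most 0.68 FPKM in any lung and was not tested. Fn1, for fibronectin, averaged 16.9 ± 11.2 FPKM in TMAO lungs and 14.4 ± 7.23 FPKM in LPS-ALI lungs (SD, n = 5 and n = 4). Tnc, the injury-associated glycoprotein tenascin C, ranged from 0 to 1.61 FPKM in TMAO lungs and from 0.50 to 1.01 FPKM in LPS-ALI lungs, reached 1 FPKM in 3 libraries and was not tested.

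Other ratios within a library, which do not change with scaling, did not differ between the groups beyond their spread. Col1a1 to Col1a2, the chains that type I collagen joins in one molecule, ranged from 0.492 to 0.757 in TMAO lungs and from 0.525 to 0.682 in LPS-ALI lungs. The difference in log2 ratio was 0.01 (exact two-sided permutation p = 0.913, adjusted p = 0.913). Col1a1 itself varied 49.4-fold over the 9 lungs, so this ratio was narrow too, although the genes lie on chromosomes 11 and 6. Col3a1 to Col1a1 ranged from 1.53 to 3.64 in TMAO lungs and from 2.36 to 3.81 in LPS-ALI lungs (exact permutation p = 0.579, adjusted p = 0.913), with TMAO replicate 4 the lowest. Col6a3 to Col6a1 spread widely, from 0.0197 to 0.221 in TMAO lungs and from 0.0123 to 0.160 in LPS-ALI lungs (exact permutation p = 0.865, adjusted p = 0.913). Lum to Dcn rests on very low Lum values and had an exact permutation p of 0.413 (adjusted p = 0.913).

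The class scores, the mean log2 value of the tested genes of a class minus the median gene of the library, put the same lungs at the ends. For interstitial collagens the score was 0.64, 0.53, -0.11, 1.41 and -0.15 in TMAO lungs, against 0.77, 0.71, 0.23 and -1.95 in LPS-ALI lungs. For basement membrane genes it was 0.41 to 2.18 in TMAO lungs and -0.45 to 1.43 in LPS-ALI lungs. The elastic fibre score was 0.25 to 0.84 in TMAO lungs and -0.79 to 0.68 in LPS-ALI lungs, and that of proteoglycans and glycoproteins was 3.41 to 4.47 and 2.64 to 4.13 in TMAO and LPS-ALI lungs. In each class LPS-ALI replicate 4 was the lowest and TMAO replicate 4 the highest library.
The scores of fibroblast, pericyte and smooth muscle markers were also lowest in LPS-ALI replicate 4, while the fibroblast score was highest in TMAO replicate 2, the pericyte score in TMAO replicate 4 and the smooth muscle score in TMAO replicate 5. The lists share matrix genes: Postn and Lamc3 are pericyte markers and Col13a1 is a fibroblast marker. Without Postn the pericyte score was still lowest in LPS-ALI replicate 4, at -1.13, and highest in TMAO replicate 4, at 0.97. The fibroblast marker score was 0.46 to 0.83 in TMAO lungs and, in LPS-ALI lungs, 0.40 to 0.68 in replicates 1 to 3 and -0.41 in replicate 4. The 12 fibroblast markers, none at 0 in all libraries, summed to 727 to 1303 FPKM in TMAO lungs and 110 to 841 FPKM in LPS-ALI lungs, of which Inmt alone had 641.5 to 1173 FPKM and 42.2 to 741 FPKM. Pericyte markers other than Postn summed to 68.8 to 272 FPKM over 9 genes in TMAO lungs and 51.5 to 149 FPKM in LPS-ALI lungs, again highest in TMAO replicate 4 and lowest in LPS-ALI replicate 4. The endothelial score was 1.93 to 2.72 in TMAO lungs and 1.41 to 2.48 in LPS-ALI lungs, with the same 2 libraries at its ends. The summed FPKM of these markers did not put LPS-ALI replicate 4 low, at 673 FPKM against 251 to 1049 FPKM in the other lungs. Of the most abundant endothelial markers, Cldn5 was highest in LPS-ALI replicate 4 at 254.6 FPKM, while Pecam1 was lowest there at 26.96 FPKM.
LPS-ALI replicate 4 stood apart in some epithelial markers and not in others. Its alveolar type 2 score was 2.09, against 4.11 to 5.17 in the other 8 lungs. Its ciliated cell score of 1.62 was the highest, but the other X-coded lung, LPS-ALI replicate 3, was also high at 1.24. The B-coded lungs had ciliated cell scores of -0.75 to 0.52. The alveolar type 1 score of LPS-ALI replicate 4, 3.30, lay within the 3.02 to 3.95 of the other lungs. Of the most abundant alveolar type 1 markers, Ager at 373 FPKM lay within the 111 to 451 FPKM of the other lungs, while Hopx at 2127 FPKM was above their 252 to 619 FPKM. Leukocyte scores were 2.48 to 3.16 in TMAO lungs and 2.88 to 3.34 in LPS-ALI lungs, and smooth muscle scores -0.19 to 0.23 and -0.65 to 0.19 in TMAO and LPS-ALI lungs. Of 8 cartilage markers, which would mark airway cartilage, 1 passed the filter and 3 were at 0 in every library. The part of these cell markers in the matrix values was not tested.

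**Figure D5:**
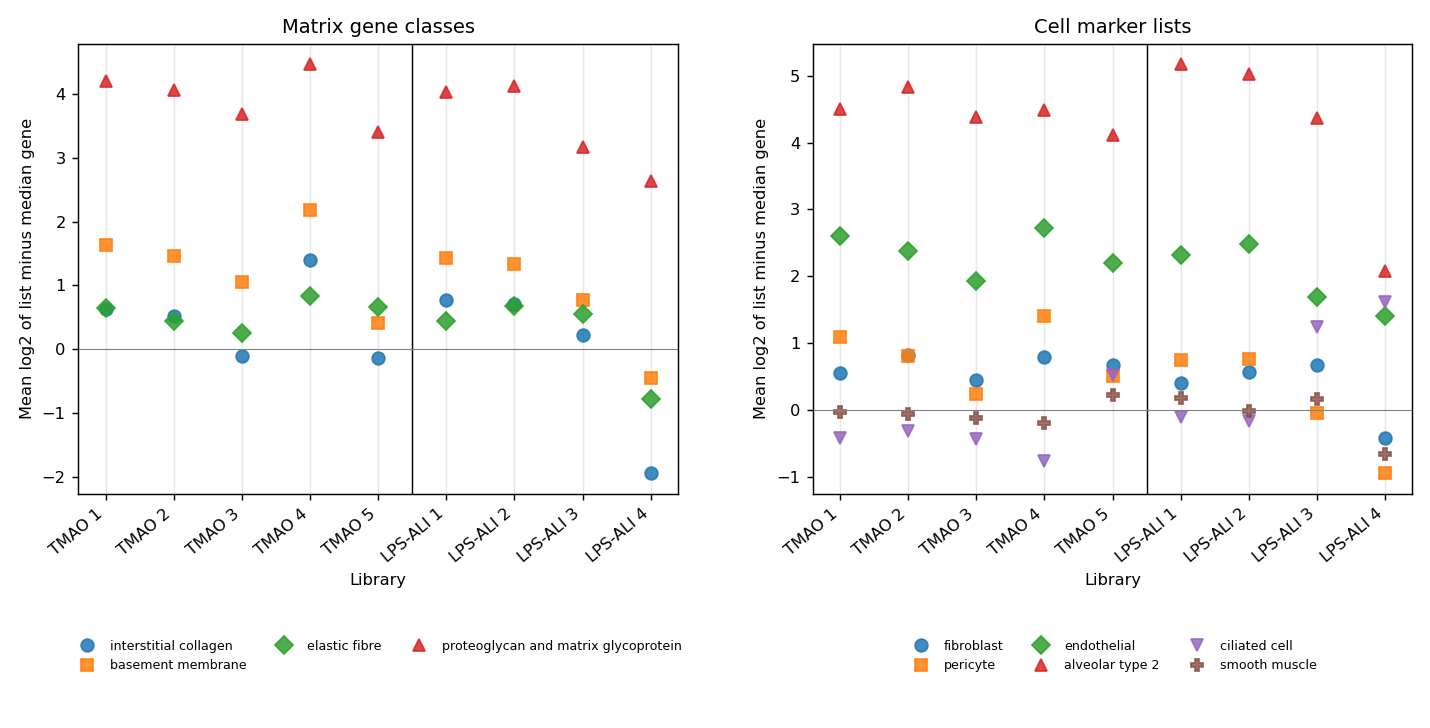
Score of each matrix gene class (left) and of 6 cell marker lists (right) by library, as the mean log2(FPKM + 1) of the list minus the median gene, with TMAO lungs left and LPS-ALI lungs right of the vertical line. All 4 matrix classes are lowest in LPS-ALI replicate 4, where the alveolar type 2 score is 2.09 and the ciliated cell score is 1.62. The ciliated cell score is also high in LPS-ALI replicate 3, at 1.24.

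Matrix genes outside these 35 were read from lists of related genes, and none passed an adjusted p of 0.05 in limma. Genes named from these lists were picked for the smallest p of their list. Of 20 tested genes among other proteoglycans and glycoproteins, 1 was higher and 2 were lower in TMAO lungs at an unadjusted limma p under 0.05. Over all tested genes the shares were 0.423% and 2.93%. Vcan, the large proteoglycan versican of the provisional matrix, had 1.02, 1.08, 1.91, 0.40 and 0.04 FPKM in TMAO lungs, against 3.37, 2.15, 2.37 and 3.75 FPKM in LPS-ALI lungs. Its groups did not overlap (relative difference -0.95, SE 0.32, limma, adjusted p = 0.998), as was so, with TMAO lungs lower, for 1.36% of all tested genes.
Ccn1, a matricellular gene that is induced rapidly by growth factors and stretch, had 9.15, 11.1, 8.52, 27.1 and 0.30 FPKM in TMAO lungs, against 22.9, 24.7, 47.9 and 13.9 FPKM in LPS-ALI lungs (relative difference -1.45, SE 0.88, limma, adjusted p = 0.998). Thbs1, the activator of latent TGF-beta thrombospondin 1, averaged 7.45 ± 5.59 FPKM in TMAO lungs and 15.5 ± 9.09 FPKM in LPS-ALI lungs (SD, n = 5 and n = 4, limma, adjusted p = 0.998). Matn2, a filament-forming matrilin, averaged 1.92 ± 1.62 and 0.55 ± 0.50 FPKM in TMAO and LPS-ALI lungs (limma, adjusted p = 0.998).
Of 15 tested genes among other elastic fibre genes, 1 had an unadjusted limma p under 0.05, against 3.35% of all tested genes. Mfap2, a fibrillin-binding microfibril protein, had 29.3, 28.5, 20.95, 44.7 and 17.0 FPKM in TMAO lungs, against 17.2, 22.6, 9.30 and 1.68 FPKM in LPS-ALI lungs (relative difference 1.58, SE 0.67, limma, adjusted p = 0.998). Its values overlapped between the groups.
Tested genes numbered 16 among other basement membrane genes, 6 among other collagen chains and 20 for collagen synthesis enzymes and chaperones. Of these, 0 had an unadjusted limma p under 0.05, against 3.35% of all tested genes. Their median relative differences were 0.32, 0.26 and 0.15, against 0 for all tested genes by definition. Without LPS-ALI replicate 4 these medians were -0.16, -0.03 and -0.23, and without that library and TMAO replicate 5 they were -0.04, 0.01 and -0.12. Lama5, the laminin alpha chain of epithelial and endothelial basement membranes, averaged 17.5 ± 10.5 FPKM in TMAO lungs and 30.3 ± 19.9 FPKM in LPS-ALI lungs, and Egflam, a basement membrane proteoglycan, 12.3 ± 8.97 and 6.61 ± 5.87 FPKM (SD, n = 5 and n = 4). P4ha2, a collagen prolyl hydroxylase subunit, averaged 12.2 ± 6.09 FPKM in TMAO lungs and 16.7 ± 7.51 FPKM in LPS-ALI lungs.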

How the data were processed

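The deposited table gives FPKM per gene to 2 decimals, calculated by the authors, and each lung has its own column. The submitters' processing notes list fastp, HISAT2, SAMtools, featureCounts and the build mm10, without versions, and no annotation, strand setting or gene lengths are stated. Per the labels' protocols, ribosomal RNA was depleted. Log2(FPKM + 1), which understates changes of low genes, was tested with limma 3.58.1 in R 4.3.3 (mean-variance trend, two-sided) over 11817 genes that reached 1 FPKM in 4 or more libraries, with Benjamini-Hochberg adjustment over all of them. Differences are TMAO minus LPS-ALI, and a relative difference subtracts the median gene. The SE is that of the linear fit before moderation. SE and limma p belong to the difference before the median gene is subtracted. Identifiers of 52073 of 52381 genes were found in GENCODE M21 (GRCm38, the assembly of mm10). Ratios were compared by exact two-sided permutation over 126 splits, which cannot give a p below 0.00794. The members, their classes and all lists were chosen with earlier results of these data known. By the naming rule every member is named, the 12 with the highest mean FPKM are given in every library, and up to 4 genes of smallest p per other list and 2 of highest level per marker list may be named, and further library values were added after they were seen. On simulated data for this comparison (11817 genes), limma recovered 5% of 100 genes set to differ 2-fold and 65% of 100 set to differ 4-fold, with 6 unchanged genes called. The changed genes were drawn from all tested genes, with noise independent between genes. Matrix genes varied more, with a median SD of log2(FPKM + 1) over the 9 libraries of 0.94 against 0.56. Recovery of matrix genes themselves was thus not measured. Relative depth was read from ratios of the lowest values between libraries, and 36 of 36 pairs fitted within 0.1 log2 units. No pair of libraries had the same value at more than 63 tested genes. Nothing given says whether the mice were handled in batches, so p-values measure only the spread between these samples. Protein sequences were not used here. Alternatives covered the pseudocount, filter, scaling, moderation, weights, a replicate block and leaving out libraries. Figures were made with Python 3.11.15 and matplotlib 3.10.9.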

Additional observations from a re-analysis of the deposited data

Results flagged for a closer look

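In 78 groups examined (tested matrix genes and ratios within TMAO or LPS-ALI lungs), a single lung stood far from the others of its group in 2, where chance alone gives about 1 in 20. Col4a3 had a log2(FPKM + 1) of 0.77 in TMAO replicate 5, against 1.70 or more in the other TMAO lungs. Col1a2 had a log2(FPKM + 1) of 1.27 in LPS-ALI replicate 4, against 4.21 or more in the other LPS-ALI lungs.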

How the results depend on the processing

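No matrix gene passed an adjusted limma p of 0.05 under any of the 23 alternatives run. The number of all genes past it was 0 in the reported fit, 51 with library weights and 0 to 3 when 1 lung was left out, the 3 without TMAO replicate 4 and 1 without LPS-ALI replicate 3. At an unadjusted limma p under 0.05 the count of matrix genes was 0 in the reported fit, 1 under median-of-ratios scaling (Bgn, against 6.74% of all tested genes), 4 with library weights (Lox higher, Mfap4, Mfap5 and Col6a3 lower in TMAO lungs, 12.5% against 13.8%), 1 without the X-coded libraries (Mfap4, lower, against 1.57%) and 0 to 4 when 1 lung was left out, the 4 without TMAO replicate 5 (Col4a1, Col4a2, Lama2 and Fbn1, higher, 12.5% against 7.28%). The cause was not tested. The median relative difference of the matrix genes was 0.46 and ranged from -0.14 without the X-coded libraries to 0.74 without LPS-ALI replicate 1. It was -0.01 with library weights and 0.00 without LPS-ALI replicate 4, so its sign depends on these choices. With the mouse number as a replicate block, where TMAO replicate 5 has no partner and drops out of the comparison, it was 0.67, with 0 matrix genes and 0 genes in all past the threshold. Of 729 values of single matrix genes under the alternatives, 722 moved by less than the SD between lungs. That SD was wide enough for signs to turn within it, as for Col3a1 from 0.49 to -0.56 without the X-coded libraries. The count therefore does not show that the differences were stable. Read totals are not given, so counting error of low genes such as Lum and Tnc is unknown.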
